A study of Homo sapiens with 9 samples.

Results

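The guide RNAs TRAM2-KO1 and TRAM2-KO2, directed against the same gene, TRAM2, were compared directly with each other in MCF10A-YAP cells. MCF10A is an immortalized, non-transformed human breast epithelial line, and MCF10A-YAP cells carry in addition a constitutively active form of YAP, the transcriptional coactivator at the end of the Hippo pathway, so this background was shared by every library. The comparison used 6 of the 9 libraries of the series: 3 of cells given the guide TRAM2-KO1 and 3 of cells given the guide TRAM2-KO2, chosen by their labels and lettered A, B and C. The other 3 libraries came from cells with a non-targeting guide, and they served only to show where each guide stood against a control. The guides were introduced by transduction of a vector followed by antibiotic selection. No isolation of clones is described, so each library is of a mixed population that can hold edited and unedited alleles. The design text of the series speaks of biological replicates but lists other conditions than the labels do, and the p values therefore measure only the spread between these samples. The question was which genes differed between cells in which the same gene had been targeted at different positions.

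TRAM2 encodes a protein of the endoplasmic reticulum membrane that belongs to the translocon, the channel through which nascent secreted and membrane proteins pass. Epithelial cells such as those of the breast are held together by adherens junctions, tight junctions and desmosomes, and are anchored to laminin by hemidesmosomes. In the epithelial to mesenchymal transition (EMT), a program that active YAP is known to promote, E-cadherin and other junction genes are lowered and mesenchymal genes such as vimentin are raised, under the control of transcription factors that include ZEB1 and SNAI2.

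The guides differ in where they cut TRAM2 (ENSG00000065308, minus strand of GRCh37 chr6:52362206-52441858). The TRAM2-KO1 cut lay inside exon 7 of 11. The TRAM2-KO2 cut fell on the junction of exon 5 with the intron that follows, at the 5′ splice site. Both guides held 50% G and C.

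The level of TRAM2 mRNA did not pass the test between the guides. TRAM2 stood at 219, 208 and 203 CPM (reads of the gene relative to all reads of its library, with library sizes adjusted by TMM) for TRAM2-KO1, in the order of libraries A, B and C, and at 216, 211 and 212 CPM for TRAM2-KO2. The groups overlapped, and the log2 fold change of TRAM2-KO2 over TRAM2-KO1 was 0.02 (SE 0.0391, 95% interval -0.07 to 0.11, adjusted p = 0.839). The control libraries held 481, 464 and 476 CPM. The reads were assigned to 1 transcript, with 4545 to 5953 reads per guide library, and their number does not show which alleles carried an edit or how transcripts of edited alleles were spliced.

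Libraries of the same guide also differed from each other, and the cause was not tested. Libraries held 21.7 to 27.6 M estimated reads, and 98.4% to 98.5% of them fell on a gene. In counts over genes, TRAM2-KO1 A was closer to TRAM2-KO2 A (chi-square of 5.27 per degree of freedom) than to TRAM2-KO1 B (11.7) or TRAM2-KO1 C (7.38), although no pair agreed within sampling noise. Libraries also differed along GC content: the rank correlation of a gene's deviation from the mean with its GC content was -0.528 in TRAM2-KO1 B, -0.312 in TRAM2-KO1 C, 0.285 in TRAM2-KO1 A and 0.492, 0.264 and 0.0245 in the TRAM2-KO2 libraries, in the same order (14816 genes, which are not independent). For this reason results below are also given from a fit that takes out each library's trend along GC content, called the GC offset here, or without the A libraries where that matters.

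Between the guides 44 genes were called, 39 of them higher and 5 lower with TRAM2-KO2. Calls needed both an adjusted p under 0.05 and a log2 difference larger than 0.5, whatever its sign. This was 0.263% of the 14816 genes tested for the higher genes and 0.0337% for the lower ones. Without a limit on size, 91 genes were higher (0.614%) and 23 were lower (0.155%), and "higher" and "lower" below refer to this test. All 44 called genes had no overlap between the 3 and 3 libraries, a property shared by 10.6% of tested genes with TRAM2-KO2 above and 10.4% with TRAM2-KO2 below. With the GC offset, 43 of the 44 called genes still had an adjusted p under 0.05, and the genes called became 43 higher and 9 lower. With an offset for transcript length, 3 of the 44 still passed (KRT15, A2ML1 and ENSG00000283765) and 41 did not, CDH1, ESRP1, CLDN1 and DSG3 among them. The number of calls depended strongly on single libraries. Without TRAM2-KO1 A it was 250 higher and 22 lower, without TRAM2-KO2 B 6 higher and 1 lower, without TRAM2-KO1 C 14 and 4, without TRAM2-KO2 A 15 and 3 and without TRAM2-KO2 C 24 and 2. Without both A libraries 58 genes were higher and 9 lower by the same limits. With no limit on size, 769 genes were higher and 198 lower without TRAM2-KO1 A, and 7 and 1 without TRAM2-KO2 B. They were 59 and 14 without TRAM2-KO1 B and 26 and 5 without TRAM2-KO1 C. Without TRAM2-KO2 A they were 26 and 7, and without TRAM2-KO2 C 38 and 6. The GC offset gave 206 and 87, and leaving out both A libraries 99 and 18. Counts of list members below are to be read beside these totals over all genes. All 44 genes kept their direction in these fits, except with the offset for transcript length, where 43 did.

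**Figure D1:**
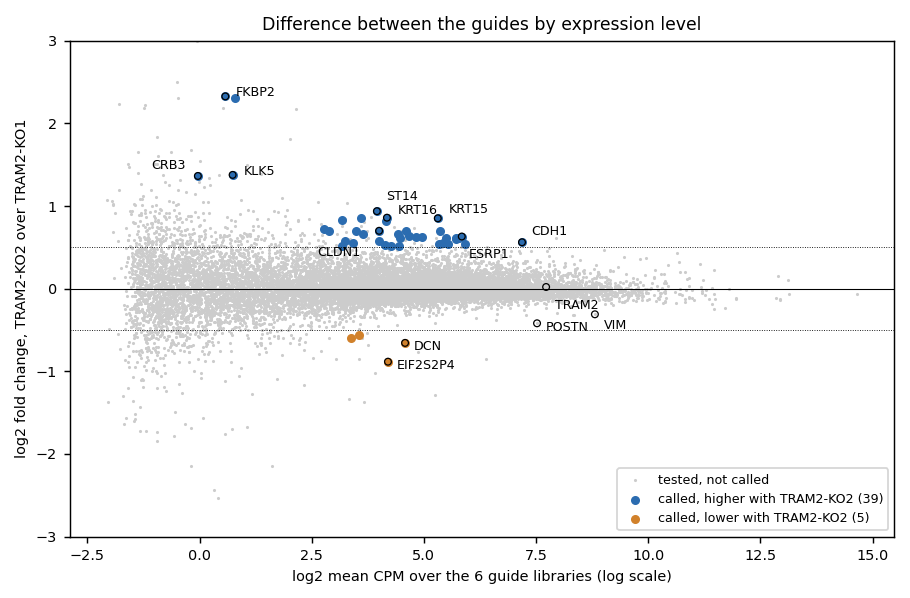
Each point is 1 of the tested genes, with the log2 mean CPM over the 6 guide libraries on the x axis and the log2 fold change of TRAM2-KO2 over TRAM2-KO1 on the y axis. The 39 genes called higher (blue) and 4 of the 5 called lower (orange) are shown, dotted lines mark the limits of 0.5, named genes are circled, and 3 tested genes (1 of them called) lie beyond the axis limits. Called genes on the higher side include CDH1, ESRP1 and KRT15, while TRAM2 lies at 0.02.

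Genes of cell to cell adhesion and epithelial identity were higher with TRAM2-KO2. Of 34 genes listed for adherens and tight junctions and for epithelial identity, 29 were tested, 8 were higher (6 of them called) and 0 were lower, with a median log2 fold change of 0.27 against 0.00 over all genes tested. CDH1, which encodes E-cadherin, the main cadherin of adherens junctions, stood at 108, 122 and 123 CPM with TRAM2-KO1 and reached 163, 174 and 184 CPM with TRAM2-KO2. The highest TRAM2-KO1 library lay below the lowest TRAM2-KO2 library, and the difference was 1.48-fold (log2 0.56, SE 0.0603, adjusted p = 0.00707). CDH3, the gene of P-cadherin and the neighbor of CDH1 on chromosome 16, went from 45.1, 39.9 and 46.0 CPM to 67.6, 67.4 and 66.3 CPM (log2 0.62, SE 0.0561, adjusted p = 0.00498). CLDN1, a claudin of tight junctions, stood at 12.1, 13.0 and 11.5 CPM with TRAM2-KO1 and at 18.8, 20.8 and 19.9 CPM with TRAM2-KO2, again without overlap (log2 0.70, SE 0.0730, adjusted p = 0.00687). CRB3, an apical polarity protein, had few reads, with 0.412 to 0.662 CPM against 1.34 to 1.47 CPM (log2 1.36, SE 0.233, adjusted p = 0.0462), and it overlaps 2 genes on the other strand. NECTIN1, a junctional adhesion molecule, was higher by 0.32 (adjusted p = 0.0400).

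ESRP1 and GRHL2, regulatory genes on the same list, were higher as well, and whether they act on its other members was not tested. ESRP1, which encodes a splicing factor that is specific to epithelial cells, held 42.0, 47.3 and 45.9 CPM with TRAM2-KO1 and 68.5, 69.2 and 71.6 CPM with TRAM2-KO2. This 1.55-fold difference (log2 0.63, SE 0.0502, adjusted p = 0.00472) had the same sign in each of 17 alternative analyses and an adjusted p under 0.05 in 16 of them. GRHL2, a grainyhead transcription factor of epithelia, was higher by 0.27 (SE 0.0445, adjusted p = 0.0400), from 66.5 to 71.5 CPM to between 79.7 and 84.5 CPM. GRHL2 had an adjusted p under 0.05 in 9 of 17 alternative analyses, and it reached 0.196 when single libraries were left out. The list did not move as a whole, since CTNNB1 and TJP1, which encode cytoplasmic partners of the junction proteins, had log2 fold changes of -0.01 and 0.03 and did not pass the test. The GC content of the list (median 48.2%) was near that of all tested genes (47.5%), and with the GC offset 10 members were higher and 0 lower. NECTIN1 was the member that no longer passed there (adjusted p = 0.151). When single libraries were left out, 1 to 12 members were higher and 0 lower, with 1 without TRAM2-KO2 B, 4 without TRAM2-KO1 C, TRAM2-KO2 A or TRAM2-KO2 C, 5 without TRAM2-KO1 B and 12 without TRAM2-KO1 A.

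In desmosomes, the spot junctions that link keratin filaments of neighboring cells, 3 of 9 tested members (13 listed) were higher and 0 lower, with a median of 0.07. DSG3, a desmosomal cadherin of basal cells, stood at 17.0, 17.5 and 17.7 CPM with TRAM2-KO1 and at 26.8, 25.9 and 26.9 CPM with TRAM2-KO2 (log2 0.61, SE 0.0525, adjusted p = 0.00487). JUP, which encodes plakoglobin and is also counted among the junction genes above, was higher by 0.55 (adjusted p = 0.0408) and PKP3, which encodes plakophilin 3, by 0.61 (adjusted p = 0.0483). These last genes are rich in GC (61.5% and 66.7%), and with the GC offset their log2 fold changes were 0.38 and 0.34 and their adjusted p values 0.00117 and 0.00431. DSP, DSG2 and DSC3, other desmosomal genes, differed by 0.06, 0.07 and -0.02 and did not pass the test. Without any one of the libraries other than TRAM2-KO1 A, 1 desmosomal member was higher.

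**Figure D2:**
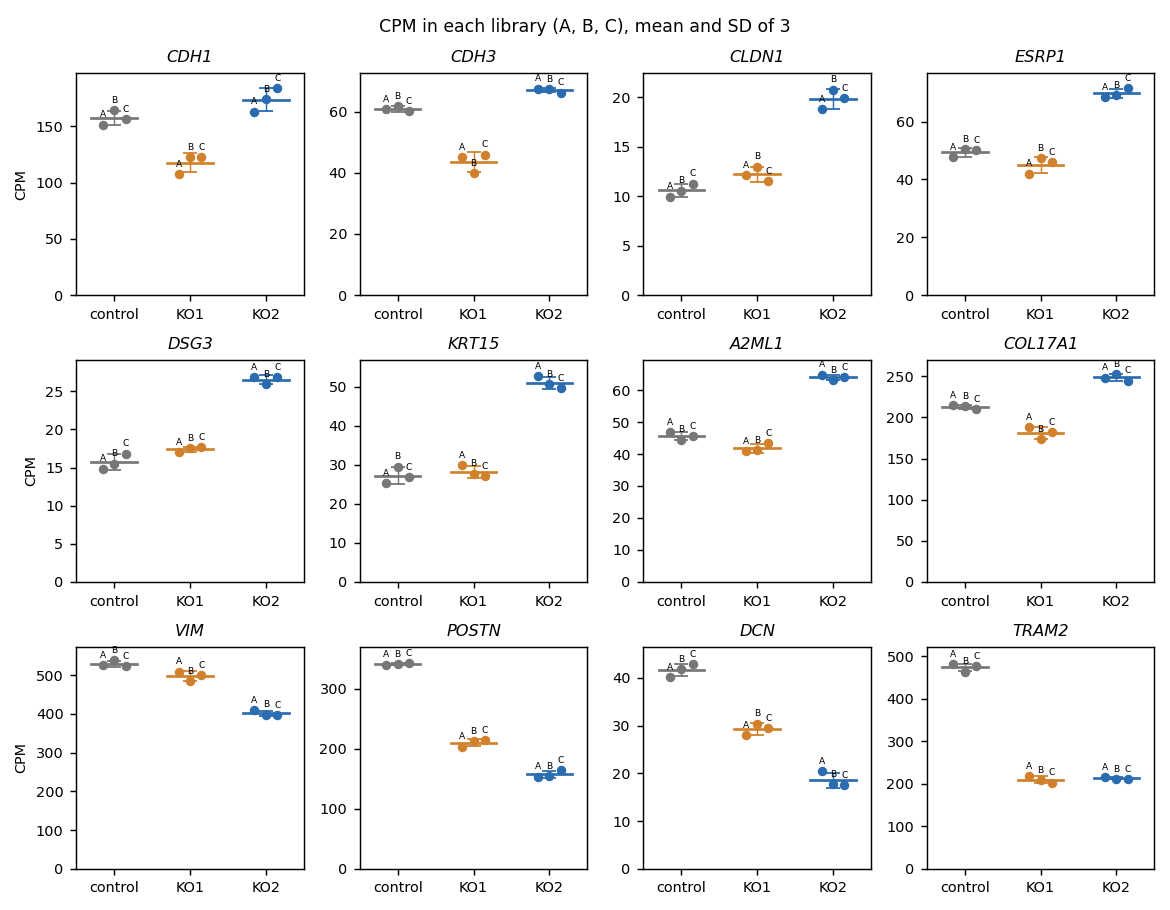
CPM of 12 genes in each of the 9 libraries, with the letter of the library beside each point, a horizontal line at the mean and bars of 1 SD (n = 3). CDH1, CDH3, CLDN1, ESRP1, DSG3, KRT15, A2ML1 and COL17A1 lie higher with TRAM2-KO2 than with TRAM2-KO1, VIM, POSTN and DCN lie lower, and the guides overlap at TRAM2.

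Keratins, the intermediate filament proteins of epithelia, were also higher with TRAM2-KO2. Of 8 keratin genes listed for basal and wounded epithelium 7 were tested and 5 were higher (3 called), with a median of 0.49. KRT15, a keratin of basal cells, stood at 29.95, 27.8 and 27.1 CPM in TRAM2-KO1 and at 52.8, 50.6 and 49.7 CPM in TRAM2-KO2, a 1.80-fold difference (log2 0.85, SE 0.0565, adjusted p = 0.0021) that kept an adjusted p under 0.05 in 17 of 17 alternative analyses. KRT16, a keratin induced by wounding, went from 13.2, 14.04 and 11.3 CPM to 25.2, 23.4 and 21.3 CPM (log2 0.86, SE 0.101, adjusted p = 0.00984). The abundant keratins moved less: KRT5 was higher by 0.23 (adjusted p = 0.0279), from between 1027 and 1075 CPM to between 1214 and 1264 CPM, and KRT6A by 0.29 (adjusted p = 0.015). KRT6B was higher by 0.52 (adjusted p = 0.0287). Among 10 tested keratins of simple and mucosal epithelia (13 listed), KRT13, found in mucosal epithelium, was higher by 0.82 (SE 0.114, adjusted p = 0.0219) and KRT80 by 0.42 (adjusted p = 0.00707). The simple epithelial keratins KRT8 and KRT18 had differences of 0.13 and 0.08 that did not pass the test. Keratin genes are near-copies of each other, so reads may have been split between them, and the lists are rich in GC (medians 56.9% and 57.5%). In these lists 6 and 2 members were higher and 0 lower with the GC offset. Among the keratins of basal and wounded epithelium the count fell to 1 without TRAM2-KO2 A or TRAM2-KO2 B, to 2 without TRAM2-KO1 C and to 3 without TRAM2-KO1 B. Among those of simple and mucosal epithelia it was 0 without TRAM2-KO2 B and 1 without TRAM2-KO1 C, TRAM2-KO2 A or TRAM2-KO2 C, and without TRAM2-KO1 A or TRAM2-KO1 B it was 4 or 3.

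Genes of squamous differentiation, the program by which layered epithelia harden their surface, included 22 tested members (51 listed). Of these 8 were higher (5 called), 0 were lower, and the median was 0.40. A2ML1, a protease inhibitor of the epidermis, stood at 40.8, 41.1 and 43.4 CPM with TRAM2-KO1 and at 64.9, 63.2 and 64.0 CPM with TRAM2-KO2, and it passed the test in 17 of 17 alternative analyses (log2 0.62, SE 0.0412, adjusted p = 0.0021). KLK5, an epidermal serine protease, was at 0.845, 0.960 and 0.971 CPM against 2.61, 2.37 and 2.24 CPM (log2 1.38, SE 0.173, adjusted p = 0.0132). PADI2, a peptidylarginine deiminase, was higher by 0.69, S100A14, a calcium-binding protein, by 0.62 and PPL, which encodes the cornified envelope protein periplakin, by 0.70. Smaller differences were seen for SLPI, a protease inhibitor of mucosal fluids (0.34, adjusted p = 0.00941), SCEL, which encodes sciellin (0.40, adjusted p = 0.00725), and PSCA, a cell surface antigen (0.45, adjusted p = 0.031). Involucrin (IVL) and transglutaminase 1 (TGM1), the classic markers of late differentiation, had differences of 0.18 and 0.31 that did not pass the test. The GC offset left 9 members higher and 0 lower, with a median of 0.29. Without TRAM2-KO2 B 1 member was higher, without TRAM2-KO1 C 2, without TRAM2-KO2 A 3 and without TRAM2-KO2 C 5.

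Further called genes belonged to none of the lists and were in part membrane proteins of polarized epithelia. ST14, which encodes matriptase, an epithelial membrane protease, stood at 12.5, 8.73 and 10.5 CPM with TRAM2-KO1 and at 21.95, 19.5 and 19.7 CPM with TRAM2-KO2 (log2 0.94, SE 0.121, adjusted p = 0.015). FXYD3, a regulator of the sodium pump, went from 30.2, 33.7 and 29.7 CPM to 51.5, 52.9 and 47.5 CPM (log2 0.70, SE 0.0675, adjusted p = 0.00578). MAL2, a protein of apical membrane transport, went from 38.7, 43.5 and 42.4 CPM to 61.0, 61.9 and 66.4 CPM (log2 0.60, adjusted p = 0.00498). RAB25, an epithelial Rab GTPase of recycling endosomes, was higher by 0.66 (adjusted p = 0.011). WFDC2, a secreted protease inhibitor-like protein, was higher by 0.86 (adjusted p = 0.0212), ADGRG1, an adhesion G protein-coupled receptor, by 0.83 (adjusted p = 0.0109) and FAM83F by 0.73 (adjusted p = 0.0253). PROM2, TRIM29, LYPD3, MISP, PCDH1, B3GNT3, CRYBG1, CDC42BPG, ADIRF, FSD1L and CD22 were called higher as well, with log2 fold changes between 0.51 and 0.70. Of the 44 called genes, CDH1, CDH3, ESRP1, CRYBG1, FSD1L, ADIRF, CD22 and FXYD3 are among those that overlap other annotated genes on the same strand. A2ML1, MAL2, ADGRG1, FAM83F, PPL, KLK5, KRT13 and PTGS2 are among those that overlap genes on the opposite strand, as CDH1 and CDH3 also do. The labels and the study's methods name different library kits, of which only the latter is called stranded, so reads of such pairs may not be told apart. CDC42BPG, a kinase gene, did not pass with the GC offset (adjusted p = 0.103), the only one of the 44 called genes of which this was true.

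A small group of mesenchymal genes was lower with TRAM2-KO2. Of 60 listed genes of mesenchyme and secreted matrix 48 were tested, 0 were higher and 7 were lower (1 called), with a median of -0.07. DCN, which encodes the matrix proteoglycan decorin, stood at 27.9, 30.4 and 29.5 CPM with TRAM2-KO1 and at 20.4, 17.8 and 17.5 CPM with TRAM2-KO2 (log2 -0.66, SE 0.0746, adjusted p = 0.009). POSTN, the gene of the matrix protein periostin, stood at 204, 213 and 214 CPM against 153, 154 and 164 CPM (log2 -0.42, SE 0.0374, adjusted p = 0.00498). VIM, which encodes vimentin, the intermediate filament protein of mesenchymal cells, stood at 509, 483 and 499 CPM against 409, 398 and 396 CPM (log2 -0.31, SE 0.0338, adjusted p = 0.00707). In all of these genes every TRAM2-KO2 library lay below every TRAM2-KO1 library.

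The EMT transcription factors ZEB1 and SNAI2, which repress CDH1, were among the genes that were lower. ZEB1 stood at 41.6, 44.5 and 44.96 CPM with TRAM2-KO1 and at 35.4, 36.8 and 35.5 CPM with TRAM2-KO2 (log2 -0.29, SE 0.0486, adjusted p = 0.0459). SNAI2 stood at 162, 170.0 and 169 CPM against 141, 149 and 144 CPM (log2 -0.21, adjusted p = 0.0495). Both lay close to the threshold, and their adjusted p values reached 0.218 and 0.219 when single libraries were left out. ZEB2, TWIST1 and SNAI1, other EMT transcription factors, had differences of -0.16, 0.05 and 0.34, and the mesenchymal cadherin gene CDH2 and the fibronectin gene FN1 had differences of -0.20 and -0.07, none of which passed the test. EFEMP1 and IGFBP3, which encode a fibulin of the matrix and a binding protein of insulin-like growth factors, were lower by -0.18 and -0.24 on the log2 scale. With the GC offset 10 members were lower and 1 was higher, the latter SERPINE2, a protease inhibitor. Without both A libraries 4 members were lower and 0 higher. With the offset for transcript length 0 of all tested genes were lower, and so no member of this list was. Leaving out TRAM2-KO2 B left 0 lower members, leaving out TRAM2-KO1 C left 1, and leaving out TRAM2-KO1 B, TRAM2-KO2 A or TRAM2-KO2 C left 3. Without TRAM2-KO1 A 9 were lower and 3 higher, in a fit where 198 genes were lower and 769 higher of 15096 tested.

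**Figure D3:**
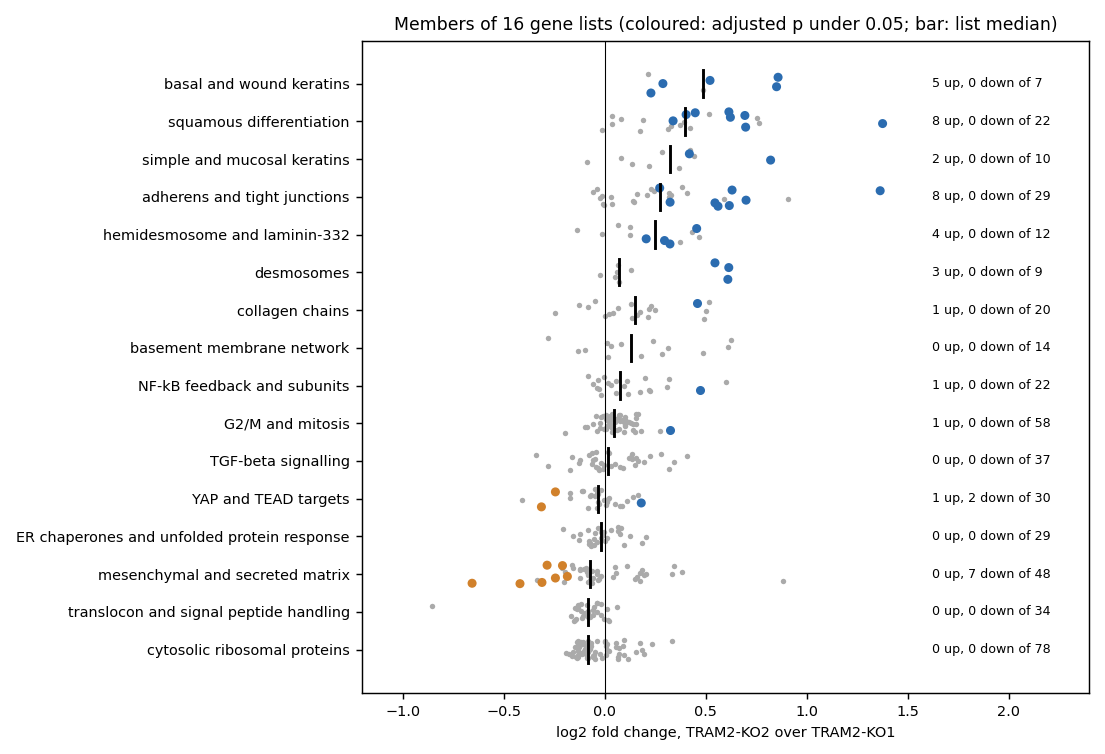
Log2 fold change of TRAM2-KO2 over TRAM2-KO1 (x axis) for each tested member of 16 gene lists (rows), with members of adjusted p under 0.05 in color, list medians as black bars and counts at the right. Points of the keratin, squamous and junction lists lie mostly above 0 and include 5, 8 and 8 higher members, while the mesenchymal list has 7 lower members and the translocon and ribosomal lists have 0 in either direction.

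Genes of the hemidesmosome and of laminin-332, the anchor of basal epithelial cells and the laminin it binds, were higher with TRAM2-KO2 by small amounts. Of 12 tested members 4 were higher, 0 were lower and 0 reached the size of a call, with a median of 0.25. COL17A1, a transmembrane collagen of hemidesmosomes, stood at 188, 173 and 182 CPM with TRAM2-KO1 and at 248, 253 and 245 CPM with TRAM2-KO2 (log2 0.46, SE 0.0397, adjusted p = 0.00487). LAMA3, a chain of laminin-332, stood at 1431, 1423 and 1516 CPM against 1787, 1815 and 1870.4 CPM (log2 0.32, SE 0.0340, adjusted p = 0.00696). ITGA6, the integrin chain of hemidesmosomes, was higher by 0.21 (adjusted p = 0.0495), and LAMB3, another laminin-332 chain, differed by 0.37 without passing the test (adjusted p = 0.101). With the GC offset LAMB3 passed too (0.26, adjusted p = 0.00707), and 6 members were higher and 0 lower. Without TRAM2-KO2 B 0 members were higher, and without TRAM2-KO1 A 7 were. Outside the hemidesmosome, ITGB6, an epithelial integrin chain induced in wounds, went from 136, 146 and 141 CPM to 190.1, 194 and 193 CPM and passed in 17 of 17 alternative analyses (log2 0.45, SE 0.0366, adjusted p = 0.00472).

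Few collagen and secretion genes passed the test between the guides. Of 20 tested collagen chains COL17A1 was the 1 that was higher and 0 were lower, with 16 of 20 above 0 and a median of 0.15. The chains had a median GC content of 55.6%, and all tested genes of 55% to 60% GC had a median of 0.08. COL6A1, a chain of microfibrillar collagen, differed by 0.50 (SE 0.127, adjusted p = 0.147), and it was 1 of the 3 chains that were higher with the GC offset (0.30, adjusted p = 0.0157), beside COL17A1 and COL4A4. COL4A1, a chain of basement membrane collagen, stood at 365, 335 and 361 CPM against 385, 391 and 389.9 CPM (log2 0.14, adjusted p = 0.177). Of 28 tested collagen modifying enzymes the prolyl 3-hydroxylase gene P3H2 was higher (0.39, SE 0.0555, adjusted p = 0.0225) and 0 were lower. LOX and PLOD2, which crosslink and hydroxylate collagen, both differed by -0.14 (adjusted p = 0.111 and 0.137). Of 34 translocon and signal peptide genes and 29 chaperones and unfolded protein response genes 0 passed in either direction, with medians of -0.08 and -0.02, and 1 in each passed with the GC offset. The translocon list leaned to one side, with 30 of 34 members below 0, including TRAM1, the paralog of TRAM2, at -0.15 (adjusted p = 0.116). Its median GC content was 42.1%, and all tested genes of 40% to 45% GC had a median of -0.04. The part of GC content in this lean was not tested. The mRNAs of the 2 proteins that the study tied to TRAM2 did not pass either. FSTL1, which encodes a secreted glycoprotein, differed by -0.08 (interval -0.15 to 0.00, adjusted p = 0.322). P3H1, a prolyl 3-hydroxylase gene, differed by -0.04 (interval -0.13 to 0.05, adjusted p = 0.659). The study made this link from protein levels and reported unaltered FSTL1 mRNA after TRAM2 knockout. That report concerned knockout against control, while the tests here are between the guides. The median log2 level of FSTL1 and P3H1, relative to the mean of the 6 guide libraries, was 0.35, 0.36 and 0.30 in the controls. In the guide libraries it lay between -0.04 and 0.04. Protein was not measured in these libraries. Of the enhancer target genes named by the study, MYC, CCND1, KIF18A, SLC39A1 and TMEM158 differed by 0.10, 0.03, 0.15, 0.01 and 0.24, and none passed.

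Signaling genes differed in a few places. PTGS2, which encodes the inflammatory cyclooxygenase COX-2, stood at 32.6, 35.8 and 37.2 CPM with TRAM2-KO1 and at 50.6, 50.4 and 53.2 CPM with TRAM2-KO2 (log2 0.55, SE 0.0557, adjusted p = 0.00667), and it was the only 1 of 19 tested cytokine and inflammation genes that passed. NFKBIA, an inhibitor and target of NF-kB, was higher by 0.47 (adjusted p = 0.0247), the only 1 of 22 tested NF-kB genes that passed. In the complement system, C3, the central component, stood at 287, 265 and 272 CPM against 369, 355 and 356 CPM (log2 0.39, SE 0.0396, adjusted p = 0.00667). Of the 14 tested complement genes 1 was higher and 1 lower.

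YAP and TEAD target genes did not move together. Of 30 tested targets 1 was higher and 2 were lower, with a median of -0.03. ANKRD1, a classic YAP target, stood at 351, 364 and 363 CPM with TRAM2-KO1 and at 287, 279 and 303 CPM with TRAM2-KO2 (log2 -0.31, SE 0.037, adjusted p = 0.00984). IGFBP3 was the other lower gene, and F3, which encodes tissue factor, was higher by 0.18 (adjusted p = 0.0319). The YAP targets CCN1 and CCN2 differed by -0.08 and -0.04 and did not pass. Among 22 tested matrix proteases and inhibitors, TIMP3, an inhibitor of metalloproteases, was higher (0.41, SE 0.041, adjusted p = 0.00667) and PLAT, which encodes tissue plasminogen activator, was lower (-0.30, SE 0.0421, adjusted p = 0.022). None of 37 TGF-beta signaling genes, 13 EGF ligand and receptor genes or 32 immediate early genes passed, while with the GC offset 2 of each were higher and 2, 0 and 1 were lower. No member passed either among 28 p53 targets, 29 genes of the integrated stress response, 32 interferon-stimulated genes, 51 genes of the G1/S transition and 78 cytosolic ribosomal protein genes. Of 58 genes of G2 and mitosis, 1 was higher, PLK1, a mitotic kinase (0.32, adjusted p = 0.0302). It became 7 genes with the GC offset.

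Genes that differed between the guides stood on different sides of the control libraries, and the sets below were formed after these values were seen. Both contrasts share the 3 control libraries and come from a fit to all 9 libraries, without the GC offset and with no library left out. The sets rest on which side of the threshold a value fell. One set of genes was below the control with TRAM2-KO1 and did not pass the test with TRAM2-KO2. CDH1 differed from the control by -0.41 with TRAM2-KO1 (adjusted p = 0.0036) and by 0.14 with TRAM2-KO2 (adjusted p = 0.283). CDH3 (-0.47 and 0.14), ST14 (-0.84 and 0.08), LAMA3 (-0.40 and -0.08), C3 (-0.37 and 0.02) and P3H2 (-0.31 and 0.08) had values of this kind, each with an adjusted p under 0.05 for TRAM2-KO1 and not for TRAM2-KO2. Another set did not pass the test with TRAM2-KO1 and was above the control with TRAM2-KO2. KRT15 differed by 0.06 (adjusted p = 0.657) and 0.90 (adjusted p = 2.55e-05), KRT16 by 0.13 and 0.98, CLDN1 by 0.21 and 0.90, DSG3 by 0.15 and 0.75, A2ML1 by -0.12 and 0.49 and ESRP1 by -0.12 and 0.50.

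Some of the genes that were lower with TRAM2-KO2 than with TRAM2-KO1 were below the control as well, and others were not. DCN (-0.50 with TRAM2-KO1 and -1.17 with TRAM2-KO2), POSTN (-0.69 and -1.12), PLAT (-0.26 and -0.57) and EFEMP1 (-0.17 and -0.36) were below the control with both guides, each with an adjusted p under 0.05. VIM (-0.08 and -0.40), ZEB1 (0.04 and -0.25) and SNAI2 (-0.05 and -0.27) had an adjusted p under 0.05 with TRAM2-KO2 and not with TRAM2-KO1. ANKRD1 had 7348 to 7811 reads in the controls, 7971 to 9559 with TRAM2-KO1 and 7056 to 8271 with TRAM2-KO2. EIF2S2P4 had 327 to 426, 564 to 611 and 311 to 377 reads in the same order. These reads are not adjusted for library size. COL17A1 lay on both sides of the control, at -0.22 with TRAM2-KO1 (adjusted p = 0.00445) and 0.22 with TRAM2-KO2 (adjusted p = 0.00316). PTGS2 and PADI2 were above the control with both guides, at 0.45 and 0.99 and at 0.37 and 1.06.

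**Figure D4:**
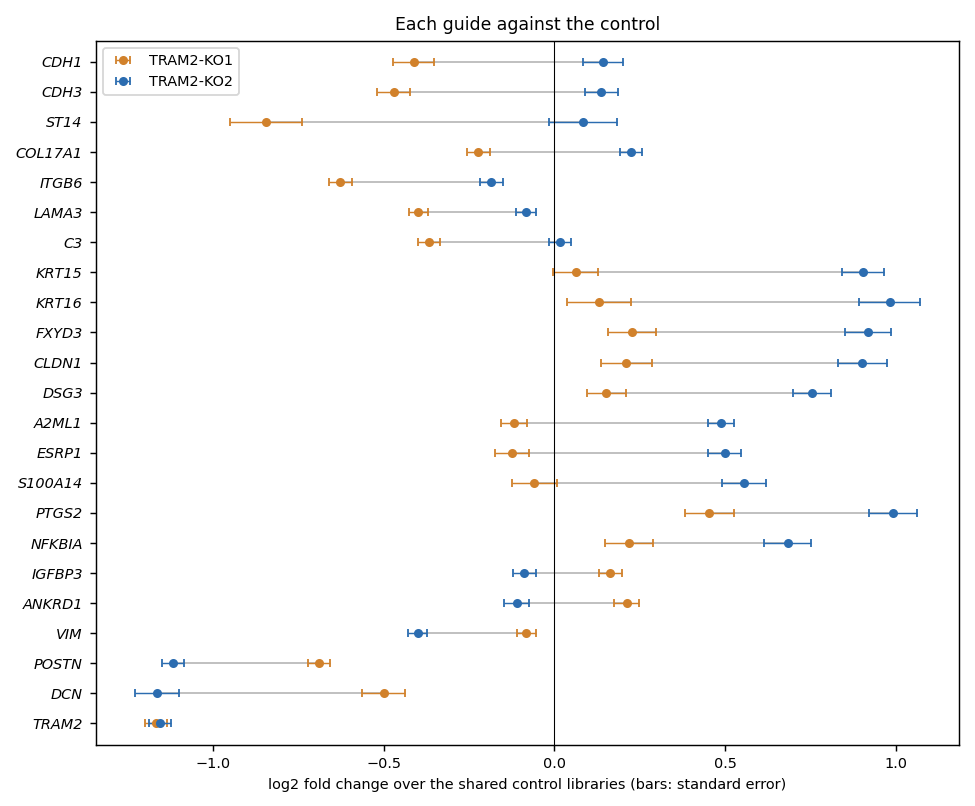
Log2 fold change over the shared control libraries (x axis, bars show the standard error) of TRAM2-KO1 (orange) and TRAM2-KO2 (blue) for 23 genes (rows), with each pair joined by a line. CDH1, ST14 and C3 lie left of 0 with TRAM2-KO1 and near 0 with TRAM2-KO2, KRT15 and KRT16 lie near 0 and right of it, POSTN and DCN lie left of 0 with both guides, and the points of TRAM2 coincide near -1.17 and -1.16.

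Some called genes have values that may depend on how reads were assigned. FKBP2, a peptidyl-prolyl isomerase gene, had the largest fold among the called genes with a symbol that were higher, at 0.772, 0.457 and 0.233 CPM against 2.17, 2.41 and 2.90 CPM (log2 2.33, SE 0.34, adjusted p = 0.0253), but the controls ranged from 0.782 to 2.37 CPM and the gene overlaps another annotation on the same strand. ENSG00000283765 (log2 2.30) overlaps PARL and MAP6D1 on the same strand and ranged from 0.491 to 5.31 CPM among the controls. On the lower side, EIF2S2P4 is a processed pseudogene of EIF2S2 (log2 -0.88, adjusted p = 0.011), and its parent gene did not pass (0.04, adjusted p = 0.721). LUZP1 (log2 -0.56, adjusted p = 0.0483) ranged from 8.51 to 17.6 CPM among the controls, against 12.1 to 15.4 CPM with TRAM2-KO1 and 9.41 to 9.64 CPM with TRAM2-KO2. ENSG00000249741, also a processed pseudogene, had 26, 13 and 13 reads in the TRAM2-KO1 libraries and 0 in all TRAM2-KO2 and control libraries, at least 5.75-fold lower when each TRAM2-KO2 library is set to the 3 reads that a count of 0 allows.

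No called gene lay within 5 kb of a partial match of the guides with up to 4 mismatches. With up to 3 mismatches and an NGG PAM, TRAM2-KO1 had 4 other sites in GRCh37 and TRAM2-KO2 had 3. The 3 tested genes that held such a site were MIR99AHG, a noncoding RNA gene (log2 0.19, adjusted p = 0.822), for TRAM2-KO1, and GLTP, a glycolipid transfer protein gene (-0.01, adjusted p = 0.938), and ZC3H7B (0.15, adjusted p = 0.318) for TRAM2-KO2. With up to 4 mismatches there were 98 and 48 sites and 39 and 16 tested genes within 5 kb, and 0 of them had an adjusted p under 0.05. Whether any site was cut was not measured.

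The difference between the guides followed GC content over all genes. The rank correlation of the log2 fold change with GC content was 0.420 over the tested genes, and the median log2 fold change went from -0.05 among 2676 genes under 40% GC to 0.27 among 414 genes of 65% and more. The GC offset brought the correlation to -0.00565, which follows from its construction, since it takes out a trend fitted to these same genes. Genes called higher had a median GC content of 56.2% and those called lower 39.9%, against 47.5% for all tested genes. With the GC offset the log2 fold changes moved in both directions. Those of PSCA (63.2% GC), PKP3 (66.7%) and KRT5 (56.9%) went from 0.45, 0.61 and 0.23 to 0.25, 0.34 and 0.15, and the median of the basal and wound keratins from 0.49 to 0.34. Those of CDH1 (48.2% GC), ESRP1 (42.6%) and CLDN1 (41.3%) went from 0.56, 0.63 and 0.70 to 0.57, 0.67 and 0.74. Set against TRAM2-KO1 A alone, the TRAM2-KO1 library that had a positive GC trend like TRAM2-KO2 A and B, CDH1 differed by 0.69 (adjusted p = 0.014), ESRP1 by 0.73 (adjusted p = 0.0115), VIM by -0.34 (adjusted p = 0.0306) and POSTN by -0.37 (adjusted p = 0.0368). In that fit 15 of the 44 called genes still had an adjusted p under 0.05 and 29 did not, among them DCN (adjusted p = 0.0762), PPL (0.0702) and CRB3 (0.453), and neither ZEB1 (0.435) nor SNAI2 (0.410) passed. That fit assumes the lone library to vary like those of the other group.

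**Figure D5:**
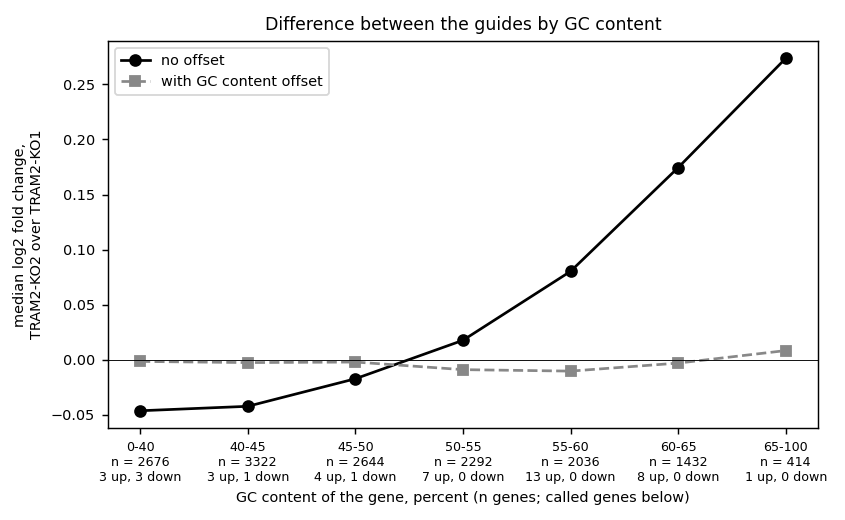
Median log2 fold change of TRAM2-KO2 over TRAM2-KO1 (y axis) by GC content of the gene (x axis, percent), without an offset (black) and with the GC offset (gray), and the genes and calls in each bin below. The black line goes from -0.05 in the lowest bin to 0.27 in the highest. The gray line stays between -0.01 and 0.01, as the offset is built to do.

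Marker genes of cell types were summed as CPM on unadjusted library totals, and both the basal and the luminal sums were higher with TRAM2-KO2. The 7 markers of mammary basal epithelium summed to 3316 to 3675 CPM with TRAM2-KO1, 4052 to 4223 CPM with TRAM2-KO2 and 3848 to 3954 CPM in the control, without overlap, with KRT5, EGFR and LAMB3 as the most abundant, while TP63, a defining basal factor, reached at most 0.111 CPM. The part of this sum in the differences of keratin and junction genes was not tested, and CDH3, KRT5 and KRT14 are counted in both, as ITGB4 and LAMB3 are in the hemidesmosome list. The 8 luminal markers summed to 1864 to 1990 CPM with TRAM2-KO1 and 1999 to 2129 CPM with TRAM2-KO2, also without overlap between the guides. This sum was mostly KRT8 and KRT18, and PGR was at 0 in all 9 libraries. Of 6 tested basal markers 2 were higher (CDH3 and KRT5), and of 6 tested luminal markers 0 were. Both lists were rich in GC (medians 57.9% and 54.7%). The 8 fibroblast markers summed to 117.5 to 137.6 CPM and 123.7 to 126.5 CPM, nearly all of it FAP, and COL1A1, COL1A2, COL3A1, PDGFRA, PDGFRB, LUM and THY1 each stayed at or below 1.604 CPM. Endothelial markers summed to at most 3.50 CPM. The 6 leukocyte markers summed to 27.98 to 30.31 CPM with TRAM2-KO1 and 26.02 to 29.59 CPM with TRAM2-KO2, nearly all of it CD68, a lysosomal protein, while PTPRC, the pan-leukocyte marker, reached at most 0.0467 CPM and CD3E was at 0 in all libraries. In these bulk libraries a larger number of cells of one state and more RNA per cell cannot be told apart.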

How the data were processed

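Poly(A) RNA was sequenced in 9 libraries. Per the submitters' processing notes the authors used cutadapt to remove adapters and Salmon to obtain estimated counts of reads for each transcript, which were deposited with TPM values and an effective length. Their versions and the transcript release used: not given in the sources used here. Estimated counts were summed per gene through GENCODE release 44 on GRCh37 (220336 of 226030 transcripts matched) and rounded. TPM was not tested, and the effective lengths entered 1 alternative.

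Genes passing filterByExpr (minimum 10 reads, 14816 of 59293) were tested with edgeR 4.0.16 (R 4.3.3) by quasi-likelihood F tests on the 6 guide libraries, with TMM scaling and two-sided Benjamini-Hochberg adjusted p values. The procedure was tested on simulated data with independent noise for each gene and no GC trend. That test therefore does not cover the differences between libraries described above. Intervals are at 95%. The biological coefficient of variation was 6.74%. Values against control came from a fit to all 9 libraries.

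The comparison, the 42 gene lists and the rule for named genes were chosen with earlier results of these data known. The rule took TRAM2, genes the study names, the 15 largest called differences per direction (mean of at least 1 CPM, no overlap), up to 5 members of each list with the smallest p and genes at partial guide matches. Other genes were named after their values were seen. Some genes and sequences are not reported here.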

Additional observations from a re-analysis of the deposited data

How the results depend on the processing

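The counts of called genes (39 higher and 5 lower) depended on the processing more than their directions did. Without a filter on low counts 129 were higher and 54 lower (30261 genes tested), with DESeq2 62 and 8, in the fit to all 9 libraries 63 and 9, and with an offset for transcript length 5 and 0, where 3 of the 44 genes still passed. Without a limit on size the counts were 91 and 23, and with a limit of 1 on the log2 scale 4 and 1. With the GC offset 9 were lower, as with TRAM2-KO1 A alone and, chosen after seeing the data, without both A libraries. Leaving out single libraries gave 6 to 250 higher and 1 to 22 lower genes. Median-of-ratios size factors, a minimum mean of 5 CPM and the replicate block alone moved neither count by over 1.5 times. Directions of the 44 called genes were kept in each alternative that tested them, except that LUZP1 went to 0.0382 (adjusted p = 0.939) with the transcript length offset, where MYO18A, higher by 0.47, also turned to -0.20 (adjusted p = 0.714). The cause was not tested.

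The library letters did not pair the samples (correlations of deviations 0.0970, -0.0840 and 0.0463 for A, B and C), and TRAM2-KO1 B correlated best with TRAM2-KO2 C (0.1103). With the replicate block 36 genes were higher and 6 lower, 36 of them among the 44, and with the block and the GC offset together 37 were higher and 13 lower.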
